A study of Sus scrofa with 6 samples.

Results

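The 4 samples of heated porcine oocytes, 2 heat-stressed and 2 heat-stressed with nicotinamide mononucleotide (NMN), were compared as one group with the 2 control samples, to describe the response to heat that was present with and without the supplement. Expression was given in FPKM, sequenced fragments scaled to the length of the transcript and the size of the library, and was log2-transformed after adding 1 FPKM. Of the 29861 genes in the table, 4713 had a mean of at least 1 FPKM over the 6 samples. In 2060 of these genes, 43.7%, all 4 heated samples lay on the same side of both controls. They are described here as genes with no overlap: 1269 (26.9%) were above and 791 (16.8%) below control.

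Oocytes taken from ovaries were matured in vitro and pooled for RNA extraction, so that one sample is an average over many cells. Every sample carries a stage label of GV (germinal vesicle) and a time of 24 h, while the methods describe the sequenced cells as metaphase II oocytes. Control oocytes received neither heat nor NMN, heat-stressed oocytes were cultured at a raised temperature, and NMN-supplemented oocytes had the same heat with NMN in the medium. By the methods the heat lasted 24 h and was followed by culture at the usual temperature up to the stage analysed. Metaphase II oocytes would thus have been collected some time after the heat had ended, and oocytes at 24 h at its end. No group received NMN without heat, and nothing in the labels says that the 2 samples of a group came from separate cultures, so that P-values measure only the spread between these samples. Less RNA per cell and fewer oocytes with a transcript cannot be told apart in such pools.

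A fully grown oocyte makes almost no new RNA. It lives on maternal mRNAs laid down during growth, many of them stored with a short poly(A) tail, and meiotic maturation proceeds by lengthening the tails of some and removing others. Somatic cells answer heat through the transcription factor HSF1, which binds heat shock elements, inverted repeats of GAA upstream of chaperone genes, and raises HSP70, HSP90 and their partners. The tail of a stored message is lengthened through a U-rich cytoplasmic polyadenylation element (CPE) close to its end, and mRNAs of ribosomal proteins commonly begin with a run of pyrimidines that ties their translation to growth signals.

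The sequences of these elements in genes that recur below are shown first, as read from RefSeq's annotation of Sscrofa11.1, the build of the files, on the strand of the transcript. A heat shock element was searched for as GAANNTTCNNGAA or TTCNNGAANNTTC, each of which is the other read on the opposite strand, from 250 bases before to 50 after the annotated start. It was found in 0.375% of 19980 protein-coding promoters and in 5 of the 40 chaperone genes tested (HSPA8, HSPD1, HSP90AB1, DNAJB6 and HSPH1). The search depends on the annotated start. The HSP70 gene HSP70.2 is annotated as 1 exon of 1926 bases without a 3′ untranslated region, so its promoter may not have been searched. Capitals mark the element, and the position of its first base relative to the start is -222 and -55 in HSPA8, -230 in HSPD1, -196 in HSP90AB1 and -9 in HSPH1.
HSPA8, chr9:49986950-49987002, minus strand: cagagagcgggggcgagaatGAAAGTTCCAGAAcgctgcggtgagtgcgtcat
HSPA8, chr9:49986783-49986835, minus strand: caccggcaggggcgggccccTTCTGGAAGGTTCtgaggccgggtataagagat
HSPD1, chr15:101373696-101373748, minus strand: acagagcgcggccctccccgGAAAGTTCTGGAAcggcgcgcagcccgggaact
HSP90AB1, chr7:39237083-39237135, plus strand: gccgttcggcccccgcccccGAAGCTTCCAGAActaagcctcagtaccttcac
HSPH1, chr11:7759412-7759464, minus strand: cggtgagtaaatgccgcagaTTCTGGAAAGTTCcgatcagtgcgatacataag

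The CPE was searched for on the transcript strand as TTTTAT or TTTTAAT in the last 100 bases of each transcript; the second form can run into the polyadenylation signal AATAAA. PPM1D, CCP110 and ESCO2 are genes with it that were higher in heated oocytes. Capitals mark the element in 30 bases of each.
PPM1D, chr12:37485651-37485680, minus strand: tcttaaattaTTTTATatatcgtacagttt
CCP110, chr3:26160252-26160281, minus strand: ttatatttatTTTTATactttaattttaat
ESCO2, chr14:11532817-11532846, plus strand: gttttaaataTTTTATttaaaaattttatt

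The first 20 bases of 3 ribosomal protein transcripts that were lower in heated oocytes are shown with their run of pyrimidines in capitals.
RPL7, chr4:62602430-62602449, plus strand: CCTCTTTCCCggctggaacc
RPL10, chrX:124927249-124927268, plus strand: CTCTTTTCCTTCggcgcggt
RPS20, chr4:75762209-75762228, plus strand: CTCTTTgaagaagacgcagc

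The samples were oocyte RNA. The summed level of 24 oocyte markers lay between 3330 and 4051 FPKM in all 6 samples. Of 24 cumulus and granulosa markers, AMH, AMHR2, AREG, INHA, KRT18 and KRT8 were at 0 throughout. Their sum was 18.7 and 15.3 FPKM in the controls, 12.3 and 9.42 after heat alone and 6.66 and 12.6 after heat with NMN, and most of it was INHBA, a subunit of activin and inhibin. It was thus lower in every heated sample, and its part in the results was not tested. Markers of blood and immune cells summed to at most 2.33 FPKM and markers of theca and stroma to at most 0.667. The total FPKM per sample ran from 163929 to 290136, and 61.7% to 74.7% of it came from the mitochondrial genome. Heat-stressed sample 1 stood apart: LOC100513953 made up 13.9% of its FPKM and was at 0 in the other samples. No read counts were used, so the depth per sample is unknown.

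The difference between heated and control oocytes was tested in each gene with limma. An unadjusted P under 0.05 was reached by 1499 genes, 31.8% of those tested, of which 894 (19.0%) were higher and 605 (12.8%) lower in heated oocytes. After Benjamini-Hochberg adjustment over all genes, 1 gene (0.0212%) stayed under 0.05, while 222 genes had an adjusted P under 0.06 and 868 under 0.1. With 4 samples against 2 there are 15 ways to split them, and the smallest P that an exact permutation test allows for 1 gene is 0.0667. Without heat-stressed sample 1, 1684 genes had an unadjusted P under 0.05 and 396 an adjusted one. Without control sample 2 the numbers were 658 (343 higher and 315 lower) and 0. Other scalings gave up to 197 genes with an adjusted P under 0.05, and the model of 3 groups gave 691.

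The members above control differed from it by less than those below. The median log2 difference was 0.40 over the 1269 genes above and -0.59 over the 791 below, against 0.07 over all genes tested. In 23 genes above control the difference was over 1 on the log2 scale, and in 105 below it was beyond -1. An unadjusted P under 0.05 was reached by 866 of the genes above and 583 of those below, which is read from the contrast that chose them and adds no evidence. Closest to the limit, YPEL3 was just inside, with 36.7 and 39.0 FPKM in the controls and at most 36.7 in the heated samples, and DPH5 just outside, since 1 heated sample and 1 control were both at 1.20 FPKM.

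The 1 gene that fell at an adjusted P under 0.05 was LOC100620883, a pseudogene on chromosome 17 (chr17:19395933-19396558) that shares its locus with another gene. It was at 4.53 and 6.52 FPKM in the controls, at 0.0926 in heat-stressed sample 2 and listed at 0 in the other heated samples. The fitted difference was -2.66 ± 0.15 (SE) with an adjusted P of 0.00281 (limma). Control and heated samples were far apart, and heated samples with and without NMN did not separate in it.

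LIN7C had the largest difference above control of the genes that carry a name. It encodes a scaffold protein of cell polarity and lies on chromosome 2. Its level was 12.7 and 8.37 FPKM in the controls, 24.8 and 24.5 after heat alone and 30.9 and 28.3 after heat with NMN. Every heated sample was thus well above both controls, with a mean of 27.1 ± 3.05 FPKM (SD, n = 4) against 10.5 ± 3.04 (SD, n = 2), 2.58-fold. The log2 difference was 1.31 ± 0.18 (SE), adjusted P = 0.0516.

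PANK3, a pantothenate kinase that starts the synthesis of coenzyme A, was at 10.7 and 8.02 FPKM in the controls and at 18.2, 18.1, 22.2 and 22.5 in the heated samples, the NMN-supplemented pair being the higher. The log2 difference was 1.04 ± 0.16 (adjusted P = 0.0516). NCOA3, a nuclear receptor coactivator, was at 5.87 and 2.48 FPKM in the controls, 6.08 and 9.15 after heat alone and 12.6 and 12.5 after heat with NMN (1.13 ± 0.36, adjusted P = 0.0935). Here the lowest heated sample was barely above the higher control. SLC30A1, a zinc exporter of the plasma membrane, had 7.96 and 5.25 FPKM in the controls and between 11.0 and 16.9 in the heated samples (1.02 ± 0.21).

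SOCS4, a suppressor of cytokine signalling, was at 1.68 and 1.70 FPKM in the controls and at 4.27, 4.32, 3.93 and 4.31 in the heated samples. It had the smallest P of all genes above control (4.86e-05) and a log2 difference of 0.95 ± 0.11, adjusted P = 0.0516. The phosphatases PPM1D, which ends the p53 and checkpoint response, and PPM1A, which acts on SMAD and stress kinases, both showed a log2 difference of 0.85. PPM1D was at 3.30 and 2.83 FPKM in the controls and at 6.18, 6.04, 6.72 and 6.28 in the heated samples. PPM1A was at 4.09 and 3.39 against 7.28, 7.12, 7.81 and 7.82. Levels in these 3 genes hardly depended on NMN, the difference between the 2 heated groups being at most 0.10 on the log2 scale. CCP110, which caps centrioles, and YOD1, a deubiquitinase, were higher by 0.96 and 0.95. Among genes with only a LOC number, the uncharacterized protein-coding LOC106510322 was at 7.32 and 4.08 FPKM in the controls and between 18.6 and 27.3 in the heated samples, 4.09-fold on the means.

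**Figure D1:**
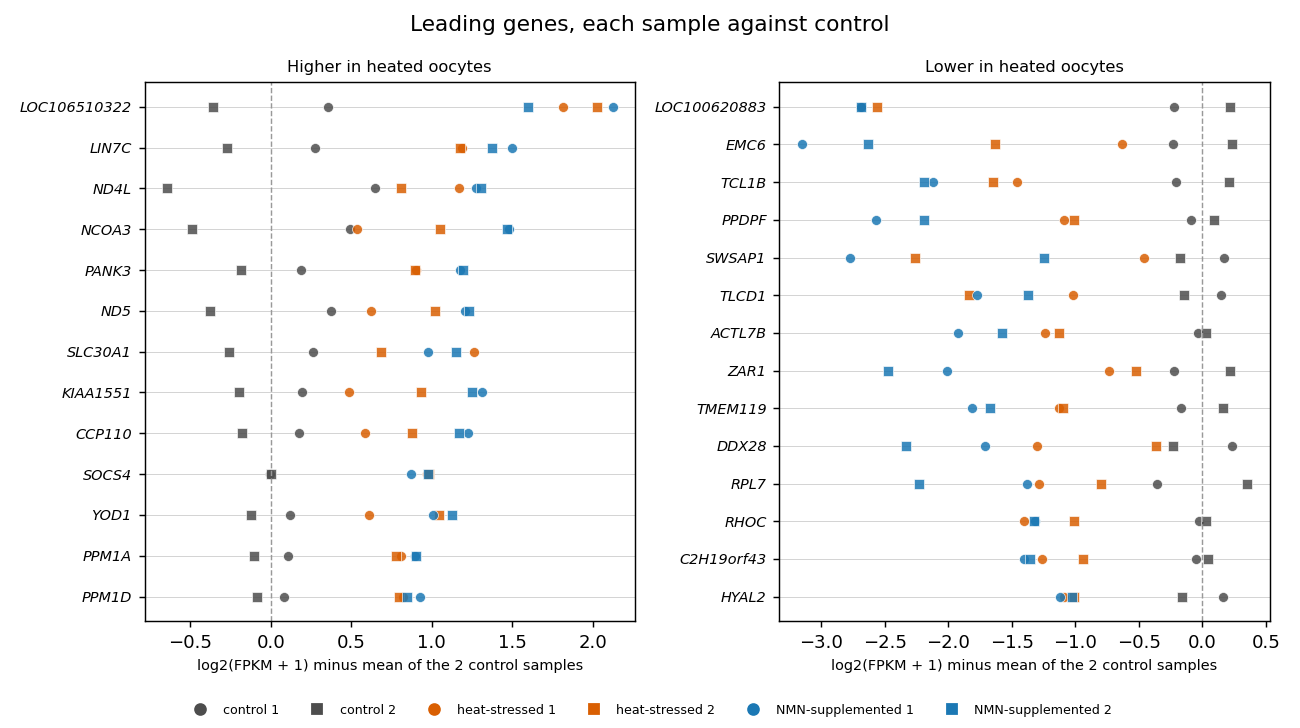
Each point is 1 sample, placed by its log2(FPKM + 1) minus the mean of the 2 controls, for the 13 genes above (left) and 14 below control (right) with the largest differences or the smallest P. Circles are sample 1 and squares sample 2 of the control (grey), heat-stressed (orange) and NMN-supplemented (blue) groups. SOCS4 and PPM1D show tight groups, whereas EMC6 and ZAR1 spread widely, with the NMN-supplemented samples lowest.

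Below control, TCL1B, a coactivator of the kinase AKT that is expressed in oocytes, was at 19.1 and 25.8 FPKM in the controls, 7.43 and 6.39 after heat alone and 4.35 and 4.08 after heat with NMN. Control exceeded the heated mean 4.04-fold, and the log2 difference was -1.86 ± 0.25 (adjusted P = 0.0516). EMC6, a subunit of the complex that inserts membrane proteins into the endoplasmic reticulum, was at 33.9 and 47.1 FPKM in the controls, 25.4 and 12.2 after heat alone and 3.60 and 5.63 after heat with NMN. Its difference of -2.01 ± 0.65 (adjusted P = 0.0981) thus came more from the NMN-supplemented than from the heat-stressed pair. ZAR1, an oocyte protein that binds maternal mRNAs, had the same order, with 17.3 and 23.8, then 11.8 and 13.8, then 4.30 and 2.84 FPKM (-1.44 ± 0.56, adjusted P = 0.137).

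The GTPase RHOC, which acts on the actin cytoskeleton, was at 5.52 and 5.80 FPKM in the controls and between 1.51 and 2.30 in the heated samples (-1.27 ± 0.14, adjusted P = 0.0516). HYAL2, a hyaluronidase anchored in the plasma membrane, was at 4.73 and 3.59 against 1.41, 1.55, 1.36 and 1.52 (-1.06 ± 0.13, adjusted P = 0.0516). In both genes the 4 heated samples lay close together. Beta-actin (ACTB) was at 2.56 and 2.81 FPKM in the controls, 1.101 and 0.983 after heat alone and 0.575 and 0.582 after heat with NMN (-1.04 ± 0.16, adjusted P = 0.0516), and the pair with NMN was the lower.

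Heat shock proteins were not higher in the heated oocytes as a group. The HSP70, HSP90, HSP60 and small heat shock proteins tested numbered 17. Of these, 8 were below and 1 above control in all heated samples, against 16.8% and 26.9% of all genes tested. At an unadjusted P under 0.05, 7 were lower and none higher, against 12.8% and 19.0%. None reached an adjusted P under 0.05. The median difference was -0.08, and -0.46 over the 13 with a mean of at least 5 FPKM. HSP70.2, the stress-inducible HSP70 of the pig, was at 582 and 574 FPKM in the controls, 368 and 442 after heat alone and 449 and 431 after heat with NMN. All heated samples were below control, with a log2 difference of -0.46 ± 0.12 (adjusted P = 0.0767), and the gene was chosen after its values were seen. The testis-type HSP70 gene HSPA1L lies at the same locus on the opposite strand and was lower by the same amount (-0.46 ± 0.12). Since the kit does not mark strand, reads of the pair cannot be told apart where they overlap.

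HSP90AA1, the inducible HSP90, was at 60.0 and 57.5 FPKM in the controls, 42.6 and 41.3 after heat alone and 23.5 and 33.1 after heat with NMN (-0.76 ± 0.24, adjusted P = 0.0943). HSPA8, the constitutive HSP70 with 2 of the elements shown above, was at 40.1 and 46.3 FPKM in the controls and, at 37.7 and 39.0, only just lower in heat-stressed oocytes. With NMN it was at 15.0 and 17.6 FPKM, and the NMN-supplemented minus heat-stressed difference was -1.19 (unadjusted P = 0.000163, limma). HSPA5, the chaperone of the endoplasmic reticulum, was at 41.6 and 48.4 FPKM in the controls and between 24.9 and 33.7 in the heated samples (-0.66 ± 0.16, adjusted P = 0.0652).

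The mitochondrial chaperonins parted. HSPE1 was at 44.8 and 48.0 FPKM in the controls and between 28.4 and 36.0 in the heated samples (-0.54 ± 0.13, adjusted P = 0.0647). HSPD1, its partner, was at 2.09 and 1.93 against 2.31, 3.09, 3.06 and 2.17 (0.27 ± 0.15, adjusted P = 0.255). These genes lie head to head with 520 bases between their annotated starts, and the element printed for HSPD1 is in that stretch. HSPH1, a nucleotide exchange factor of HSP70, was above control in both heat-stressed samples (2.50 and 1.65 against 1.40 and 1.49 FPKM) and below it in both NMN-supplemented samples (1.13 and 1.22). HSP90AB1 overlapped between the groups. The 5 genes with an element thus comprised 1 above control, 1 below and 3 that overlapped. HSF1 and HSF2 had a mean under 1 FPKM and were not tested.

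Of 26 DNAJ proteins and co-chaperones, 1 was higher and 6 lower at an unadjusted P under 0.05, against 19.0% and 12.8% of all genes tested. DNAJB1, the HSP40 that is induced with HSP70 in somatic cells, was at 27.1 and 25.4 FPKM in the controls, 13.4 and 14.7 after heat alone and 10.9 and 10.2 after heat with NMN, a log2 difference of -1.05 ± 0.17 (adjusted P = 0.0516). The NMN-supplemented pair was the lower of the heated groups. DNAJB4 was the 1 gene higher, at 3.66 and 3.82 against 5.62, 5.28, 6.36 and 6.87 FPKM (0.56 ± 0.13, adjusted P = 0.0646). The cold-inducible RNA-binding protein RBM3 was at 4.53 and 4.58 FPKM in the controls and at 1.23, 2.51, 2.02 and 0.987 in the heated samples (-1.09 ± 0.24, adjusted P = 0.0598). CIRBP, the other such protein, was at 1.57 and 3.27 against 1.27, 1.51, 0.986 and 0.829 (-0.63 ± 0.23, adjusted P = 0.121).

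**Figure D2:**
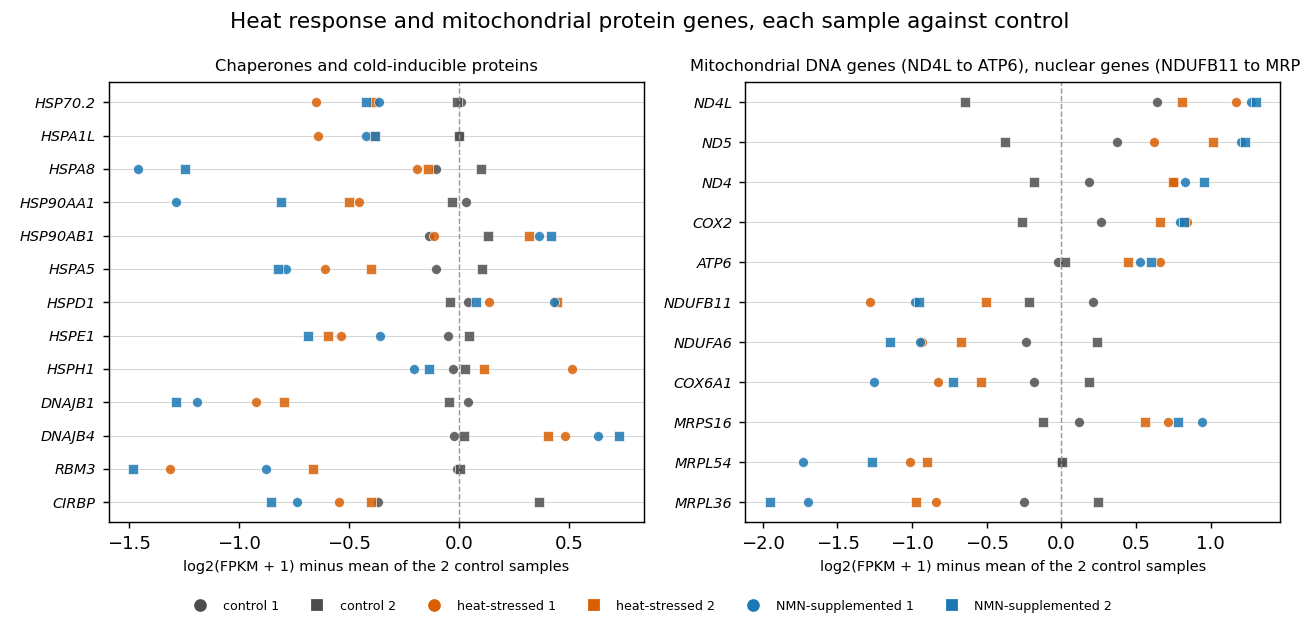
Each point is 1 sample, placed by its log2(FPKM + 1) minus the mean of the 2 controls, with groups marked as in the plot of leading genes. Left, chaperones and the cold-inducible RBM3 and CIRBP; right, 5 genes of the mitochondrial genome and 6 nuclear genes for mitochondrial proteins. DNAJB1, RBM3 and both HSP70 genes at the shared locus lie below control in all 4 heated samples, and HSPH1 splits by NMN. On this scale ND4L to ATP6 lie to the right of control, while NDUFB11, NDUFA6 and COX6A1 lie to the left. COX2 and ATP6 were not higher after quantile normalization, which sets the highest ranks to the same values in every sample.

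Genes for respiration differed from control in opposite directions by genome on the deposited scale. Of the 13 proteins encoded in mitochondrial DNA, 10 were above control without overlap, against 26.9% of all genes tested. At an unadjusted P under 0.05, 11 were higher, against 19.0%. The median difference was 0.70. It stayed at 0.70 with samples scaled to the same median of nuclear genes, or to the same sum without mitochondrial and top genes. After quantile normalization, which gives all samples the same distribution, it was -0.07. That step sets the highest ranks to the same values in every sample, so it can show little of a difference shared by the most abundant genes. COX2, of cytochrome c oxidase, was at 15903 and 11029 FPKM in the controls and between 20982 and 23705 in the heated samples (0.78 ± 0.17, adjusted P = 0.0559). ND4, of complex I, was at 2850 and 2206 against 4227, 4206, 4456 and 4873 (0.82 ± 0.14, adjusted P = 0.053). The share of FPKM from mitochondria was 66.4% and 61.7% in the controls, 62.4% and 71.6% after heat alone and 74.2% and 74.7% after heat with NMN. Only heat-stressed sample 1 overlapped with the controls, and in it LOC100513953 alone made up 13.9% of the FPKM. The summed FPKM of the 13 mitochondrially encoded proteins was 118545 and 101184 in the controls. In the heated samples it lay between 146009 and 181012, without overlap.

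Of 65 nuclear genes for the respiratory chain and ATP synthase, 16 were tested and 2 had a mean of at least 5 FPKM. Of the 16, 8 were below and none above control, against 16.8% and 26.9% of all genes tested. At an unadjusted P under 0.05, 7 were lower and none higher, against 12.8% and 19.0%. The median was -0.42. NDUFA6, an accessory subunit of complex I, was at 3.40 and 5.11 FPKM in the controls and at 1.71, 2.26, 1.69 and 1.34 in the heated samples (-0.92 ± 0.19, adjusted P = 0.0539). Of 34 proteins of the mitochondrial ribosome 8 were lower and 1 higher at an unadjusted P under 0.05 (median -0.20). Over all genes tested the shares were 12.8% and 19.0%. MRPL54 was lower (-1.23), whereas MRPS16 was at 55.3 and 46.6 FPKM in the controls and between 75.4 and 98.3 in the heated samples (0.75 ± 0.14, adjusted P = 0.053).

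Cytosolic ribosomal proteins had the lowest median of the 27 lists in the plot of gene lists, -0.47 on the deposited scale. Of 38 tested, 19 were below control and 1, RPL15, above, against 16.8% and 26.9% of all genes tested. At an unadjusted P under 0.05, 18 were lower and 1 higher, against 12.8% and 19.0%. With trends in GC content and transcript length removed, as described further on, 8 were below and 3 above control. At an unadjusted P under 0.05, 7 were then lower and 2 higher. RPLP1, of the ribosomal stalk, was at 14.8 and 19.7 FPKM in the controls and at 8.19, 7.53, 7.41 and 4.62 in the heated samples (-1.21 ± 0.23, adjusted P = 0.053). RPL7, whose start is shown above, was at 4.88 and 8.62 against 2.09, 3.33, 1.89 and 0.604 (-1.42 ± 0.39, adjusted P = 0.0773). These genes have near-identical pseudogene copies, and how reads were shared with them is uncertain. A start with C and at least 4 more pyrimidines was annotated in 9 of 37 ribosomal protein genes (24.3%) and in 3.0% of 3964 nuclear protein-coding genes tested. The median difference was -0.69 in those 9, -0.46 in the other 28, and 0.03 in 110 other genes with such a start.

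Among translation factors the directions were mixed, with 5 higher and 6 lower of 25, against 19.0% and 12.8% of all genes tested. EEF1A1, which brings aminoacyl-tRNA to the ribosome, was at 107 and 106 FPKM in the controls, 74.9 and 70.1 after heat alone and 52.9 and 57.0 after heat with NMN (-0.74 ± 0.17, adjusted P = 0.0602). EIF1AX, which helps select the start codon, was higher (0.59 ± 0.14, adjusted P = 0.0643). Proteasome subunits were lower in 6 and higher in 1 of 23, against 12.8% and 19.0% of all genes tested. PSMB5, a catalytic subunit, differed by -1.05. The median of the list was -0.16, and 0.06 over the 7 with a mean of at least 5 FPKM. For ubiquitin-conjugating and -removing enzymes 14 of 47 were higher and 2 lower at an unadjusted P under 0.05, against 19.0% and 12.8% of all genes tested, with a median of 0.13. With trends in GC content and transcript length removed, as described further on, 6 were higher and 4 lower and the median was 0.04.

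At an unadjusted P under 0.05, oocyte markers were lower in 10 and higher in 1 of 21, against 12.8% and 19.0% of all genes. Their median was -0.42. With trends in GC content and length removed, 6 were lower and 2 higher. The paired growth factors GDF9 and BMP15 differed from each other. GDF9 was at 732 and 777 FPKM in the controls, 477 and 532 after heat alone and 435 and 353 after heat with NMN (-0.76 ± 0.17, adjusted P = 0.0626). BMP15, among the most abundant nuclear mRNAs, was at 1606 and 1646 FPKM against 1861, 1940, 1820 and 1751 (0.18 ± 0.11, adjusted P = 0.277). Its heated samples were all above control, but the difference did not pass the test, and after quantile normalization it was -0.01. The zona pellucida gene ZP3, a glycoprotein of the egg coat, was at 24.7 and 26.3 FPKM in the controls and between 8.38 and 14.2 in the heated samples (-1.08 ± 0.20, adjusted P = 0.053), and ZP4 differed by -0.84. GDF9, BMP15, ZP4 and, below, MOS and WEE2 were chosen after their values were seen.

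Regulators of meiosis fell on both sides, 5 higher and 6 lower of 33, against 19.0% and 12.8% of all genes tested. MOS, the kinase that starts the MAP kinase cascade of maturation, was at 845 and 932 FPKM in the controls and at 770, 644, 655 and 590 in the heated samples (-0.42 ± 0.14, adjusted P = 0.101). WEE2, which holds oocytes in meiotic arrest by inhibiting CDK1, was at 157 and 134 FPKM in the controls, 201 and 198 after heat alone and 251 and 249 after heat with NMN (0.62 ± 0.15, adjusted P = 0.0715). FBXO43, the inhibitor of the anaphase-promoting complex that keeps oocytes at metaphase II, was at 20.9 and 18.5 against 30.6, 35.3, 43.4 and 36.1 (0.84 ± 0.16, adjusted P = 0.053). PLK1, a mitotic and meiotic kinase, went the other way, with 7.15 and 6.68 FPKM in the controls and between 3.30 and 3.92 in the heated samples (-0.80 ± 0.12, adjusted P = 0.0516).

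Of 29 cohesin and kinetochore genes 8 were higher and 1 lower at an unadjusted P under 0.05, against 19.0% and 12.8% of all genes tested. Without overlap, 12 lay above and 2 below control, against 26.9% and 16.8%, and the median was 0.18. ESCO2, the acetyltransferase that locks cohesin on DNA and whose CPE is printed above, was at 48.6 and 41.2 FPKM in the controls, 61.5 and 66.2 after heat alone and 89.5 and 79.4 after heat with NMN (0.70 ± 0.18, adjusted P = 0.0725). SGO2, which protects centromeric cohesin, was higher by 0.67. Of 21 genes of the double-strand break response 9 were higher and none lower, against 19.0% and 12.8% of all genes tested. With trends in GC content and length removed, 3 were higher and 1 lower. The median difference before this step was 0.35, with 0.18 in the heat-stressed and 0.37 in the NMN-supplemented samples. BRCA2, a gene of homologous recombination, was at 13.1 and 10.3 FPKM in the controls, 14.9 and 19.4 after heat alone and 22.4 and 24.2 after heat with NMN (0.73 ± 0.21, adjusted P = 0.0815), and its partner PALB2 at 18.5 and 14.1 against 21.1, 25.2, 34.0 and 30.6 (0.72 ± 0.21).

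Factors that store, tail or degrade maternal mRNA were higher in 10 and lower in 6 of 40, against 19.0% and 12.8% of all genes tested. With trends in GC content and length removed, 6 were higher and 1 lower. CNOT7, a catalytic subunit of the CCR4-NOT deadenylase, was at 21.0 and 15.5 FPKM in the controls and between 25.7 and 31.9 in the heated samples (0.63 ± 0.16, adjusted P = 0.0715). CNOT6, its other nuclease, and YTHDF3, a reader of methylated adenosine, were higher by 0.58 and 0.72, while ZAR1 was the lowest of the list. Over the 3732 genes with at least 100 bases of 3′ untranslated region, a CPE as defined above was present in 25.6%. It was found in 29.3% of 1087 genes above control, 14.1% of 624 below and 27.2% of 2021 that overlapped. In the genes whose last 100 bases held at most 32 G or C, the median, these shares were 35.6%, 24.7% and 35.0%, and in the others 13.5%, 10.8% and 18.5%. The gap between genes above and below control was narrower within each of these classes than over all.

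In other groups the counts were small. For NAD synthesis and use, the pathway NMN feeds, 4 of 9 genes were higher and none lower, against 19.0% and 12.8% of all genes tested. With trends in GC content and length removed, 1 was higher and none lower, and the median moved from 0.26 to 0.12. SLC25A51, the carrier of NAD into mitochondria, was at 14.7 and 12.7 FPKM in the controls, 21.3 and 20.1 after heat alone and 24.3 and 20.3 after heat with NMN (0.61 ± 0.13, adjusted P = 0.0555), so it was about as high without NMN as with it. SIRT1, an NAD-dependent deacetylase, was at 1.92 and 1.86 against 2.69, 2.84, 2.36 and 2.75 FPKM (0.34 ± 0.11, adjusted P = 0.106). Of 13 apoptosis genes 2 inhibitors of caspases, XIAP (0.67) and BIRC3 (0.70), were higher, a share under the 19.0% of all genes tested. With trends in GC content and length removed their differences were 0.27 and 0.29, and neither had an unadjusted P under 0.05. The 4 lower genes, against 12.8% of all genes tested, included the survival factor BCL2L1. It was at 33.8 and 34.0 FPKM in the controls and between 25.0 and 26.2 in the heated samples (-0.39 ± 0.10, adjusted P = 0.0731). In the integrated stress response, ATF4, its central transcription factor, was at 21.8 and 21.1 FPKM in the controls, 12.5 and 15.5 after heat alone and 7.99 and 9.20 after heat with NMN (-0.91 ± 0.25, adjusted P = 0.0758). Antioxidant genes were higher in 2 and lower in 2 of 20, against 19.0% and 12.8% of all genes tested. The secreted peroxidase GPX3 differed by -1.0.

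**Figure D3:**
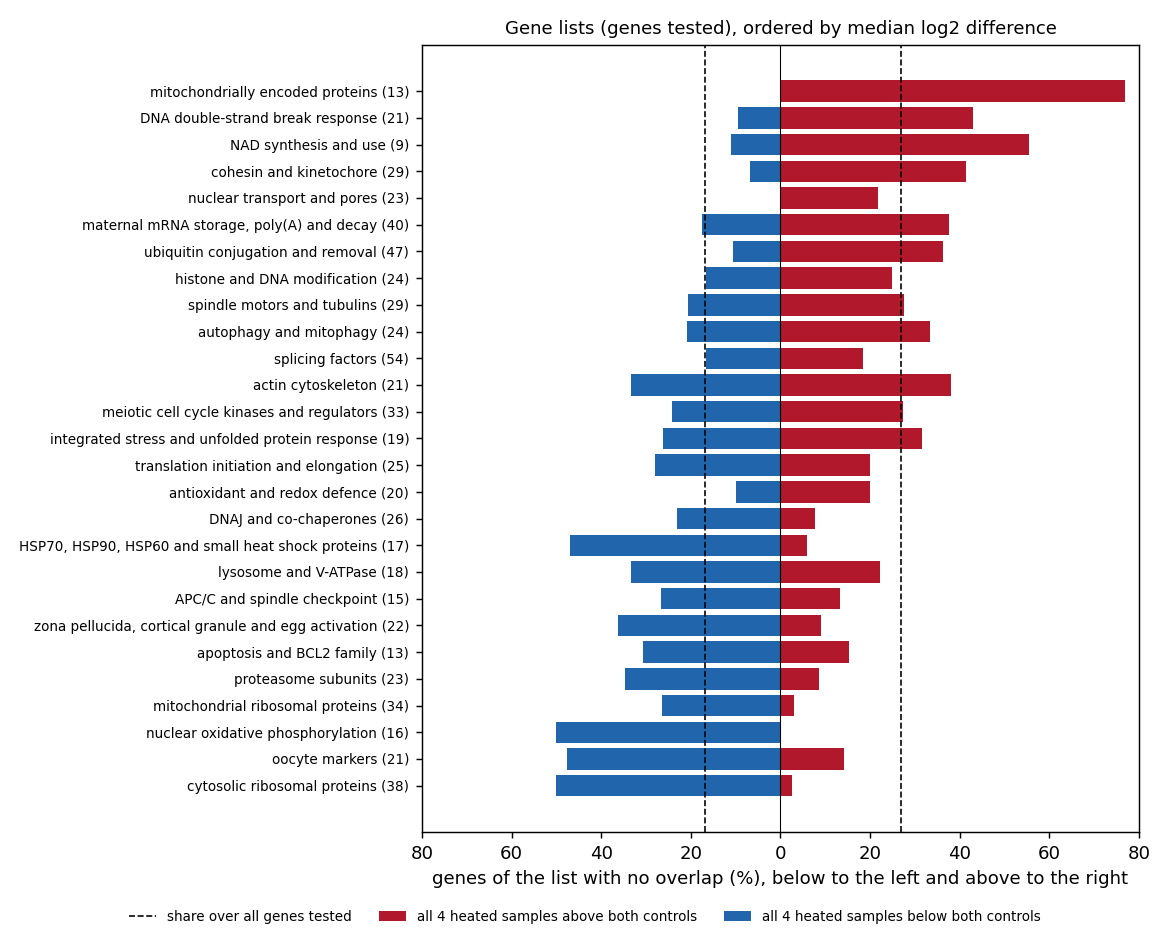
Bars give, for each list with at least 9 genes tested, the percentage of genes above (red, right) and below control (blue, left) in all 4 heated samples; dashed lines mark the same over all genes tested, 26.9% and 16.8%. Mitochondrially encoded proteins reach furthest to the right, with 10 of 13 genes. Their median turned negative after quantile normalization, which sets the highest ranks to the same values in every sample. Cytosolic ribosomal proteins and nuclear oxidative phosphorylation genes reach furthest to the left, with 19 of 38 and 8 of 16.

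Transcript composition separated the genes above from those below control. Over nuclear protein-coding genes the median GC content of the transcript was 42.1% in 1104 genes above, 55.4% in 685 below and 48.0% in all 3964. Median transcript length was 4310 bases above and 2248 below, and the median 3′ untranslated region 2016 and 622 bases. In the decile of genes with the least GC, 61.7% were above control and 1.76% below, while in the decile with the most, 2.02% were above and 32.2% below. Across these genes, which are not independent replicates, Spearman's rho between the heated minus control difference and GC content was -0.51, and 0.41 with length. Between the 2 samples of a group it was 0.04 (control), -0.07 (heat-stressed) and 0.05 (NMN-supplemented) with GC content, and -0.31, 0.19 and 0.18 with length.

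**Figure D4:**
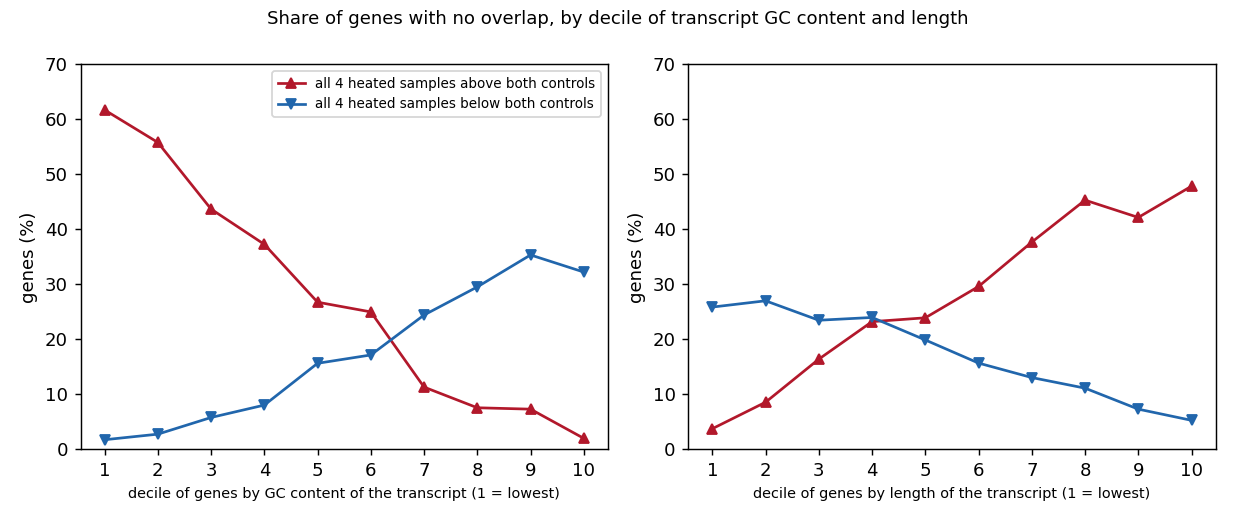
Percentage of nuclear protein-coding genes in which all 4 heated samples lay above (red) or below (blue) both controls, by decile of the genes in GC content (left) and length (right) of the transcript, lowest first. From the lowest to the highest decile of GC content the share above falls from 61.7% to 2.02% and the share below rises from 1.76% to 32.2%.

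When trends with GC content and length were removed from each sample, a step chosen after this pattern was seen, 970 genes were above control and 768 below. Of the 1269 and 791 genes, 678 and 506 remained without overlap in the same direction. The median moved from -0.47 to -0.24 for cytosolic ribosomal proteins, from -0.42 to -0.15 for oocyte markers, from 0.35 to 0.07 for double-strand break genes, from 0.18 to 0.05 for cohesin and kinetochore genes and from -0.16 to 0.04 for proteasome subunits. It moved by less for mitochondrially encoded proteins (0.70 to 0.65) and nuclear respiratory genes (-0.42 to -0.35). SIRT1 and SRSF10, a splicing factor, changed sign, to -0.098 and -0.034. LIN7C (0.85), PPM1D (0.75), DNAJB1 (-0.68), HSP90AA1 (-0.78), RBM3 (-1.02) and WEE2 (0.63) kept an unadjusted P under 0.05. So did SOCS4 and PPM1A, at differences that moved from 0.95 to 0.41 and from 0.85 to 0.35. Of the 121 named genes, 87 kept direction and side of the threshold, and 31 lost the unadjusted call without a change of sign. Among these 31 were HSP70.2 (-0.16), MOS (-0.10), BRCA2 (0.36), DNAJB4 (0.08), CNOT6 (0.11), EIF1AX (0.19) and SGO2 (0.24).

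By the way the genes were chosen, both heated groups lay on the same side of control, but not at the same distance. Both comparisons share the control samples. For the genes above control the median difference was 0.32 in heat-stressed and 0.47 in NMN-supplemented oocytes, and for those below it was -0.47 and -0.65. The direct comparison of NMN-supplemented with heat-stressed oocytes, which uses no control sample, gave an unadjusted P under 0.05 in 641 of all genes tested (13.6%). Among the genes above control it did so in 148 (11.7%), in 145 of which the NMN-supplemented samples were higher. Among those below it did so in 177 (22.4%), in 166 of which they were lower. Both NMN-supplemented samples exceeded both heat-stressed samples in 742 of the 1269 genes above control (58.5%, against 35.9% of all genes tested), and both were under them in 334 of the 791 below (42.2%, against 17.6%). Within the genes so chosen, NMN-supplemented samples lay farther from control than heat-stressed ones more often than nearer to it. EMC6, ZAR1, HSPA8 and ESCO2 are examples. SOCS4, RHOC, HYAL2 and SLC30A1 are examples with no such difference past the test. The heated values in these counts also chose the genes, so the counts add no evidence on NMN. Over all genes tested, NMN-supplemented samples were higher in 337 of the 641 genes and lower in 304. Spearman's rho of the NMN-supplemented minus heat-stressed difference was -0.15 with GC content and 0.29 with length. These have the signs of the heated minus control values (-0.51 and 0.41), and their part in the counts was not tested.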

How the data were processed

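Libraries were made from mRNA of pooled oocytes with a kit that does not mark strand, and sequenced as paired reads. The authors trimmed the reads, aligned them to susScr11 with tophat2 and, per the labels, used Cufflinks 2.2.1 with Cuffnorm and Cuffdiff. They deposited FPKM per gene and sample, which were used here. Their fold changes, P-values and group means were not used.

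Genes with a mean of at least 1 FPKM were fitted as log2(FPKM + 1) with limma 3.58.1 in R 4.3.3 (empirical Bayes with trend, two-sided): 4 heated against 2 control samples. A model of 3 groups gave the NMN-supplemented minus heat-stressed difference. The Benjamini-Hochberg adjustment ran over the 4713 genes. Fold changes on this scale understate those of low genes. The fit was tested on simulated data. A gene is said to have fallen or risen only at an adjusted P under 0.05; counts of list members higher or lower are at an unadjusted P under 0.05.

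The members and gene lists were chosen with earlier results of these data known. Genes named were the 10 with the largest difference in each direction among those with no overlap and P under 0.05 (those with a LOC number apart), the 5 with the smallest P, up to 3 per list and 11 genes of the heat and cold response; HSP70.2, GDF9, BMP15, ZP4, MOS and WEE2 were chosen after their values were seen, as were the genes named for their printed sequence or for marking a limit. All 29861 gene IDs matched RefSeq's annotation of Sscrofa11.1, the build of the files; sequences, GC content and length are from its transcripts (Python 3.11.15, pandas 2.3.3, pysam 0.24.0). Numbering of the replicates did not pair samples: correlations of their deviations were -0.03, -0.01 and 0.01.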

Additional observations from a re-analysis of the deposited data

Results flagged for a closer look

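In 5 of the values reported, a sample or group stood apart. ENSA, an inhibitor of the phosphatase PP2A, was at 8.10 FPKM in NMN-supplemented sample 1, far above the other 3 heated samples for their spread. HSPA1L was at 24.1 FPKM in heat-stressed sample 1, well below the other heated samples. LOC100620883 was at 0.0926 FPKM in heat-stressed sample 2 and listed at 0 in the other heated samples. SOCS4 was at 3.93 FPKM in NMN-supplemented sample 1, below the other heated samples, which lay close together. Chance alone sets such a sample apart in about 1 of 20 groups, and 123 values were examined. HSPH1 was above control in both heat-stressed samples and below it in both NMN-supplemented samples, and its NMN-supplemented minus heat-stressed difference was -0.49 on the log2 scale (unadjusted P = 0.028, limma).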

How the results depend on the processing

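The number of genes with an unadjusted P under 0.05 (1499) became 2579 with a minimum mean of 0.1 FPKM (11651 genes tested, 44.6% of the calls higher against 59.6%), 629 with a minimum of 5 FPKM (1672 genes) and 827 with the NMN-supplemented samples left out (408 higher and 419 lower), and ran from 658 to 1684 leaving out 1 sample. The number with an adjusted P under 0.05 (1) became 0 with a pseudocount of 0.1 FPKM (1474 unadjusted), 39 and 222 with the minima of 0.1 and 5 FPKM, 197 after quantile normalization, 175 at the same median of nuclear genes, 691 in the model of 3 groups, 0 without the NMN-supplemented samples and 800 without the heat-stressed samples, and ran from 0 to 396 leaving out 1 sample. It stayed at 1 with the GC and length trends removed. Genes above and below control were 2013 and 2015 at 0.1 FPKM, 545 and 256 at 5 FPKM, and 2050 and 1246 without the heat-stressed samples. Leaving out 1 sample, where fewer values must lie on one side, they ran from 1323 to 1804 and from 863 to 1258. Genes that differed between NMN-supplemented and heat-stressed oocytes (641) were 1161 at 0.1 FPKM, 266 at 5 FPKM, and 327 to 701 leaving out 1 sample, where a lone sample is assumed to vary like the others. Fitting the replicate block, although the numbers pair no samples, gave 1322 genes, 1 after adjustment and 527 between the heated groups. ATP6 (-0.079) and COX2 (-0.032) changed sign after quantile normalization, and SIRT1 (-0.098) and SRSF10 (-0.034) with the GC and length trends removed. The cause of these shifts was not tested. Over 121 named genes and their alternatives, 1970 values kept direction and side of the threshold, 140 lost the unadjusted call and 5 gained it.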

Other observations

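Among 29 spindle motors and tubulins, 6 were higher and 6 lower at an unadjusted P under 0.05, against 19.0% and 12.8% of all genes. The lower ones were TUBB4B, TUBB2B, TUBB, TUBA1B, the tubulin-binding STMN1 and DYNLL1, a light chain of dynein, at 218 and 281 FPKM in the controls, 168 and 139 after heat alone and 104 and 102 after heat with NMN (-0.97 ± 0.23, adjusted P = 0.0666). The higher ones included the motor KIF5B (0.59) and the dynein chain DYNC1LI2 (0.56). In the actin list, 7 of 21 were higher and 3 lower, the lower being ACTB, CFL1 and PFN1. With GC and length trends removed, the counts for the microtubule list were 3 and 3, and for actin 3 and 2.

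Over all genes tested 19.0% were higher and 12.8% lower at an unadjusted P under 0.05. Of 54 splicing factors, with shares under both of these, 9 were higher and 6 lower, SRSF3 by 0.75 and RBM3 by -1.09. Of 24 autophagy genes 6 were higher and 4 lower, MFN1, which fuses mitochondria, by 0.53 and PINK1, which marks damaged ones, by -0.74. Of 18 lysosomal genes 2 were higher and 6 lower, ATP6V0B, a proton pump subunit, by -1.42. Of 23 genes of nuclear transport 2 were higher, and 20 had a positive difference, against 57.6% of all genes tested. Their median moved from 0.17 to 0.03 with GC and length trends removed. Of 15 genes of the anaphase-promoting complex and checkpoint 1 was higher and 3 lower, of 24 histone and DNA modifiers 2 and 3, of 22 zona and egg activation genes 2 and 6, and of 19 genes of the integrated stress and unfolded protein response 3 and 4.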
